A study of Rattus norvegicus with 6 samples.

Results

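The microRNAs miR-183, miR-96 and miR-182 form a cluster of 3 hairpin genes, and their levels were described here in sperm of rats fed a high-protein diet (HPD) and of rats fed a standard diet (SD). The 3 members were chosen by name, as the table entries of rno-mir-183, rno-mir-96 and rno-mir-182 that matched the rat genome, out of 384 miRNA hairpin entries and 26561 entries naming a small RNA. The rule names them and uses no level or fold change. Small RNA was sequenced from epididymal sperm of 3 HPD rats and 3 SD rats, 1 library per rat. All were wild type male Wistar rats given as 5 months old, and the HPD rats had eaten the high-protein diet for 2 to 3 months from the age of 10 weeks. The sperm pellets had gone through a hypotonic shock, a step meant to lyse somatic cells. The question of the comparison was whether the father's diet changes the small RNA content of sperm, and the libraries are called HPD2, HPD3, HPD7, CTRL1, CTRL2 and CTRL3 after the columns of the deposited tables, CTRL being the SD rats.

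The cluster is known in mammals as one primary transcript. The enzymes Drosha and Dicer cut it into the separate hairpins and then into short mature strands. A mature strand guides the Argonaute complex to messenger RNAs, mainly through its seed, the bases 2 to 8 from its 5′ end. In mice and humans the cluster is best known from sensory cells of the ear and the eye, where changes in the seed of miR-96 cause hearing loss. It is also known from spermatocytes of the mouse testis, and in human cells miR-96 and miR-182 repress FOXO1, a transcription factor of the insulin pathway.

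The mature strands named by RefSeq for the rat genome GRCr8 are shown first because the seeds set the members apart. Capitals mark bases 2 to 8.
rno-miR-183-5p: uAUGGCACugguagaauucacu
rno-miR-96-5p: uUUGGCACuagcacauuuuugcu
rno-miR-182: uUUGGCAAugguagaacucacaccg
rno-miR-183-3p: uGAAUUACcgaagggccauaa
rno-miR-96-3p: cAAUCAUGugcagugccaauau
The main strands of miR-96 and miR-182 had the same bases 2 to 7, and the seed differed by C8A, with miR-96-5p first and positions counted from the 5′ end. The seed of miR-183-5p differed from that of miR-96-5p by A2U, and from that of miR-182 by A2U and C8A. Over the whole strands, seed included, the likeness had another order. miR-183-5p and miR-182 were identical at 18 of 22 positions (81.8%), with U17C and U22A as the other differences. miR-183-5p and miR-96-5p were identical at 13 of 22 positions (59.1%), and miR-96-5p and miR-182 at 12 of 23 (52.2%). Among the 724 rat mature strands listed, no other strand had the bases 2 to 8 of any of these 3 main strands, and bases 2 to 7 were shared only between miR-96-5p and miR-182.

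The hairpins are shown because each deposited value counts the reads of a whole hairpin, without separating its arms. Capitals here mark the listed mature strands.
rno-mir-183 hairpin: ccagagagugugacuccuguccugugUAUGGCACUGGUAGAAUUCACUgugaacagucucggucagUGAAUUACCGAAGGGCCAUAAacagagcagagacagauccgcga
rno-mir-96 hairpin: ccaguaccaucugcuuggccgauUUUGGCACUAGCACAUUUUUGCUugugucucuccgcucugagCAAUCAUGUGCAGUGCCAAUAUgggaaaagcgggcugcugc
rno-mir-182 hairpin: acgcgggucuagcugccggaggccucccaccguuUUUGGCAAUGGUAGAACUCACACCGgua
In GRCr8 these hairpins lie on the minus strand, that of miR-183 at chr4:59756044-59756153, that of miR-96 at chr4:59755841-59755946 and that of miR-182 at chr4:59752246-59752307. In the direction of transcription the order is therefore miR-183, miR-96, miR-182, and the annotation places them as miRNA genes between the protein-coding genes Ube2h and Nrf1. RefSeq listed both arms for miR-183 and miR-96 and 1 arm for miR-182. Per the methods, the authors' counts were made with files for the older build Rnor_6.0, and no position of GRCr8 was used with that build.

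One further hairpin gene, Mir3553, lies on the opposite strand and overlaps the miR-183 hairpin by 106 bases. Its mature strand is shown because it is the mirror of the miR-183 strand, with its own bases 2 to 8 in capitals.
rno-miR-3553: cAGUGAAUucuaccagugccaua
The reverse complement of this strand contained all 22 bases of miR-183-5p. Yet rno-mir-3553 had 0, 0 and 3 reads in HPD2, HPD3 and HPD7, and 0 reads in each of the 3 SD libraries, where a count of 0 allows up to 3 reads. The miR-183 hairpin had between 1828 and 8518 reads in the same libraries.

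The reads counted in small RNA entries, snoRNA left out, came to 5703625 to 7697588 in HPD libraries and 4141018 to 7920000 in SD libraries. This total is meant by all reads below. miRNA hairpins took 13.3 ± 1.92% of these reads in HPD rats and 24.4 ± 4.14% in SD rats (SD, n = 3 each), with ranges of 11.3 to 15.1% and 20.9 to 28.9%. The share of miRNA thus differed between the diets without overlap, and each member was compared both with all small RNAs and with the other miRNAs. In a bulk sample, fewer cells of a type and less RNA per cell cannot be told apart. No label gave a sequencing or extraction batch, so diet and any batch that ran with it cannot be told apart.

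miR-182 was the most abundant member. Its normalized count, a read count divided by the authors' size factor for the library, was 6118, 6192 and 2910 in HPD2, HPD3 and HPD7, against 11986, 5601 and 7326 in CTRL1, CTRL2 and CTRL3. The means were 5073 ± 1874 in HPD rats and 8304 ± 3303 in SD rats (SD, n = 3 each). CTRL1 stood highest and HPD7 lowest, while HPD2 and HPD3 lay between CTRL2 and CTRL3, so the groups overlapped. The reads behind these values numbered 5279, 7118 and 4289 in the HPD libraries and 17517, 4303 and 5852 in the SD libraries.

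miR-183, which lies first in the primary transcript, came next. Its normalized count was 3761, 2833 and 1767 in HPD2, HPD3 and HPD7, against 5829, 2379 and 3166 in CTRL1, CTRL2 and CTRL3. The means were 2787 ± 997 in HPD rats and 3791 ± 1808 in SD rats (SD, n = 3 each). CTRL1 was again the highest and HPD7 the lowest, and HPD2 lay above both CTRL2 and CTRL3. The reads counted were 3245, 3257 and 2605 in the HPD libraries and 8518, 1828 and 2529 in the SD libraries.

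miR-96, the middle hairpin of the transcript, was the rarest member. Its normalized count was 289, 178 and 97.0 in HPD2, HPD3 and HPD7, against 314, 184 and 68.9 in CTRL1, CTRL2 and CTRL3. The means were 188 ± 96.1 in HPD rats and 189 ± 123 in SD rats (SD, n = 3 each). CTRL3 was the lowest library here, and the range of the HPD libraries lay inside that of the SD libraries. With 249, 205 and 143 reads in the HPD libraries and 459, 141 and 55 reads in the SD libraries, miR-96 was also the member with the fewest reads behind each value.

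**Figure D1:**
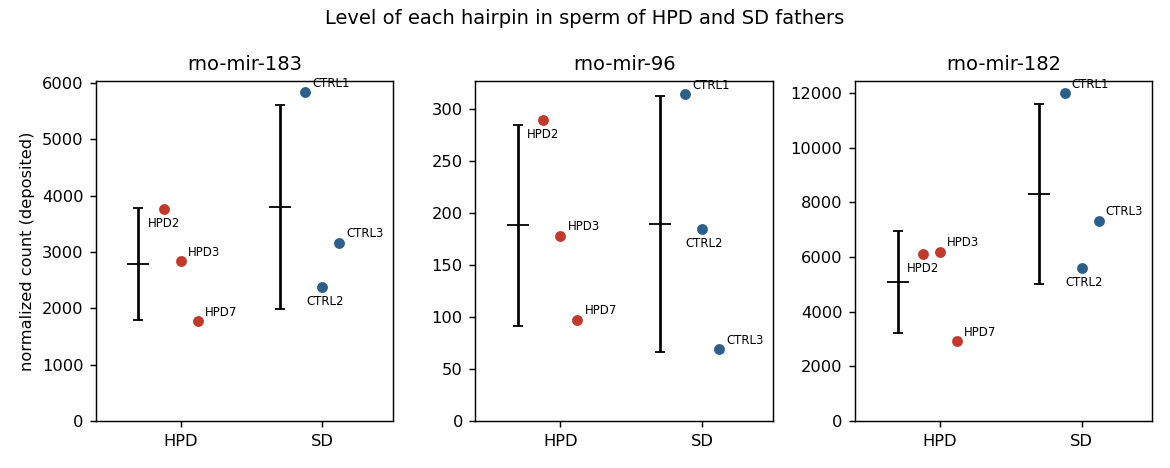
Normalized count of each member (vertical axes, 1 panel per member, from 0) in the 3 HPD and 3 SD libraries, 1 point per library, with the mean ± SD as the black bar. The 2 groups overlap in each panel, and CTRL1 is the highest library for all 3 members.

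Divided by hairpin length, the order miR-182, miR-183, miR-96 held in all 6 libraries, as it did for the undivided counts. The listed hairpins have 62, 110 and 106 bases, while the main mature strands have 25, 22 and 23. The division therefore raises miR-182 relative to the other 2 members, and the places given below carry the same limit. The normalized count per hairpin base was 81.8 ± 30.2 in HPD rats and 134 ± 53.3 in SD rats for miR-182, whose listed hairpin of 62 bases is the shortest of the cluster. It was 25.3 ± 9.07 in HPD rats and 34.5 ± 16.4 in SD rats for miR-183. For miR-96 it was 1.77 ± 0.907 in HPD rats and 1.78 ± 1.16 in SD rats (SD, n = 3 each). The hairpins of the cluster, known in mammals from a shared transcript, thus differed widely in read count within each library. Among the 353 hairpins with a listed length, of 379 matched to the genome, miR-182 took place 26 to 37 in HPD and 27 to 35 in SD by count per base, counted from the most abundant. miR-183 took place 59 to 66 in HPD and 58 to 83 in SD, and miR-96 place 129 to 160 in HPD and 154 to 204 in SD. The nearest neighbours in the mean order were picked by that level itself, so they are close to the members by construction. For miR-182, at 108 ± 48.1 per base over all 6 libraries, these were rno-mir-30e at 109 ± 44.5 and rno-let-7d at 103 ± 41.3 (SD, n = 6).

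Against all small RNAs, 0 of 3 members passed the test between HPD and SD. In edgeR's quasi-likelihood fit with Benjamini-Hochberg adjustment, 160 of 1858 entries tested (8.61%) had an adjusted p of at most 0.05, with 41 higher and 119 lower in HPD. Among the miRNA entries of that fit, 83 of 285 (29.1%) were called, all of them lower in HPD, and the median log2 fold change of the 285 was -0.86. At an unadjusted p under 0.05, 1 of 3 members and 133 of the 285 miRNA entries passed, and DESeq2 and limma each called 0 of 3 members. All 3 members overlapped between the groups in normalized count, whereas 136 of 285 miRNA entries (47.7%) did not. The cluster was thus found among the miRNAs with no called difference, in a comparison in which many miRNAs were called lower in HPD.

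miR-182 had the most negative fold change of the cluster. Its log2 fold change of HPD over SD was -0.78 (SE 0.35, 95% interval -1.57 to 0.00), a fold of 0.58 with an interval of 0.338 to 0.997. The p in edgeR was 0.0491 before adjustment and 0.283 after it. That value lay close to the median of the miRNAs, since 149 of the 285 miRNA entries had a lower log2 fold change.

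For miR-183 the log2 fold change was -0.51 (SE 0.37, 95% interval -1.35 to 0.32, edgeR adjusted p = 0.641), and 175 of the 285 miRNA entries lay below it. For miR-96 it was -0.09 (SE 0.55, 95% interval -1.31 to 1.13, edgeR adjusted p = 0.967), and 225 of the 285 lay below it. The interval of miR-96 runs from a fold of 0.402 to a fold of 2.18, so neither a lower nor a higher level within these bounds was excluded by this fit. The direction of miR-96 was not stable. It was positive with upper quartile factors (0.16), without a filter on low counts (0.12) and in limma (0.11 and 0.09 for the 2 pseudocounts). These scalings moved the median of all entries too, to 0.28 with upper quartile factors and to 0.68 without a filter, against 0.03.

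CTRL1, the library with the highest values, weighed on all 3 fold changes. Without it the log2 fold change was -0.36 for miR-182, 0.00 for miR-183 and 0.54 for miR-96. HPD7, the library with the lowest values of miR-182 and miR-183, had an effect of the same kind. Without it the log2 fold changes were -0.39 for miR-182, -0.16 for miR-183 and 0.32 for miR-96. No member was called with any 1 library left out.

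**Figure D2:**
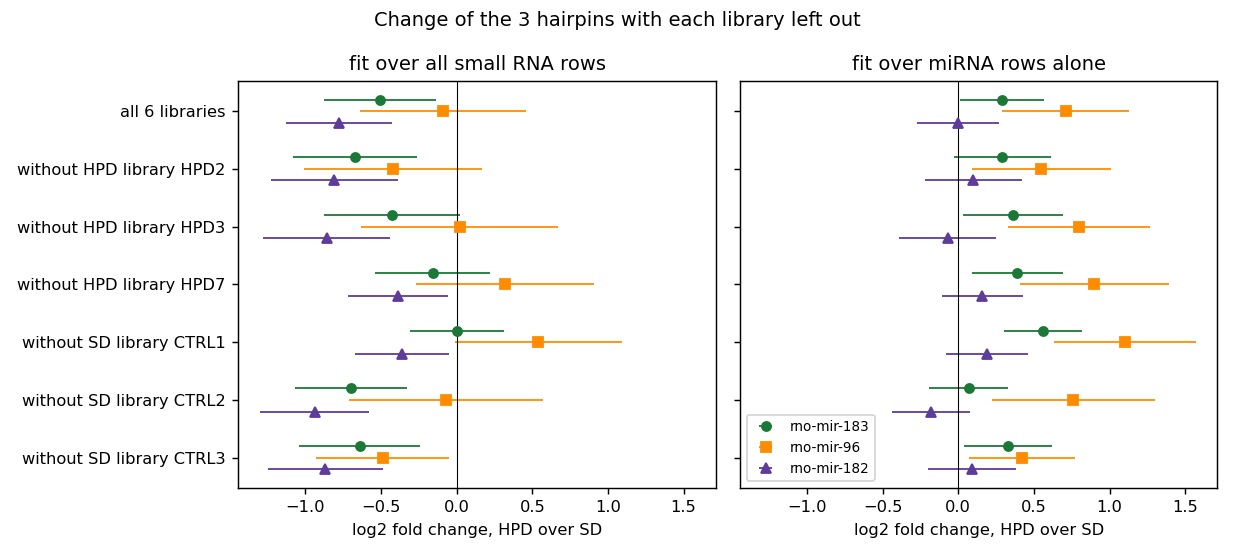
Log2 fold change of HPD over SD ± SE for each member with all 6 libraries and with each library left out in turn, in the fit over all small RNAs and in the fit over miRNAs alone. Leaving out CTRL1 moves all 3 members upward, to -0.36, 0.00 and 0.54 for miR-182, miR-183 and miR-96 in the fit over all small RNAs.

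Relative to the other miRNAs the cluster overlapped between the diets. As a share of the miRNA reads, the cluster summed to 1.02, 1.03 and 0.837% in HPD2, HPD3 and HPD7, against 1.16, 0.725 and 0.852% in CTRL1, CTRL2 and CTRL3. The means were 0.960 ± 0.107% in HPD rats and 0.911 ± 0.221% in SD rats (SD, n = 3 each). The HPD libraries lay within the range of the SD libraries. As a share of all reads the cluster took 0.129 ± 0.0306% in HPD rats and 0.228 ± 0.0951% in SD rats.

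The shares of the single members overlapped between the diets as well. miR-182 took 0.612, 0.691 and 0.510% of miRNA reads in HPD2, HPD3 and HPD7, against 0.764, 0.497 and 0.591% in CTRL1, CTRL2 and CTRL3. miR-183 took 0.376, 0.316 and 0.310% in the HPD libraries, against 0.372, 0.211 and 0.255% in the SD libraries. HPD2, with the highest share of miR-183, lay just above CTRL1. miR-96 took 0.0288, 0.0199 and 0.0170% of miRNA reads in the HPD libraries, against 0.0200, 0.0163 and 0.00556% in the SD libraries. CTRL3 was low for miR-96, and its 95% Wilson interval of 0.00427 to 0.00723%, which covers counting error only, did not reach the other libraries' shares.

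In the edgeR fit over miRNA entries alone, 0 of 3 members were called, against 71 of 281 entries (25.3%), of which 25 were higher and 46 lower in HPD. No member reached an unadjusted p under 0.05, and DESeq2 called none. The median log2 fold change of the 281 was -0.09. Against this background miR-182 had a log2 fold change of 0.00 (SE 0.27, 95% interval -0.57 to 0.58, adjusted p = 0.988). miR-183 had 0.29 (SE 0.28, 95% interval -0.31 to 0.88, adjusted p = 0.459), and miR-96 had 0.71 (SE 0.42, 95% interval -0.20 to 1.62, adjusted p = 0.229). The value of miR-96 was 1.10 without CTRL1 (adjusted p of 0.105 in edgeR) and 0.42 without CTRL3. The value of miR-183 was 0.56 without CTRL1 and 0.07 without CTRL2.

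The make-up of the cluster was described next, because a ratio of 2 hairpins in 1 library depends on neither depth nor scaling. miR-183 amounted to 61.5, 45.8 and 60.7% of the miR-182 reads in HPD2, HPD3 and HPD7, against 48.6, 42.5 and 43.2% in CTRL1, CTRL2 and CTRL3. HPD2 and HPD7 lay above every SD library and HPD3 between them. On the log2 scale the ratio was -0.85 ± 0.24 in HPD rats and -1.16 ± 0.11 in SD rats (SD, n = 3 each), a difference of 0.31 (two-sided exact permutation p = 0.2, 0.6 after adjustment over 9 ratios). With 3 rats against 3, the smallest p this exact test can give is 0.1.

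The ratios of miR-96 were the more variable ones. miR-96 amounted to 4.72, 2.88 and 3.33% of the miR-182 reads in HPD2, HPD3 and HPD7, against 2.62, 3.28 and 0.940% in CTRL1, CTRL2 and CTRL3. The mean log2 ratio was -4.81 ± 0.37 in HPD rats and -5.64 ± 0.96 in SD rats, a difference of 0.83 (exact permutation p = 0.2, adjusted 0.6). The groups overlapped, and the difference was 0.28 without CTRL3, where miR-96 was low. Against miR-183, miR-96 amounted to 7.67, 6.29 and 5.49% in the HPD libraries and 5.39, 7.71 and 2.17% in the SD libraries. The difference in log2 ratio was 0.52 (exact permutation p = 0.5, adjusted 0.643), and it was -0.01 without CTRL3.

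Within the reads of the cluster, miR-182 made up 62.8 ± 3.90% in HPD rats and 68.0 ± 1.70% in SD rats. miR-183 made up 34.9 ± 3.59% in HPD rats and 30.4 ± 1.55% in SD rats. miR-96 made up 2.27 ± 0.495% in HPD rats and 1.54 ± 0.815% in SD rats (SD, n = 3 each). These shares add to the whole, so a higher share of 1 member goes with a lower share of another.

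**Figure D3:**
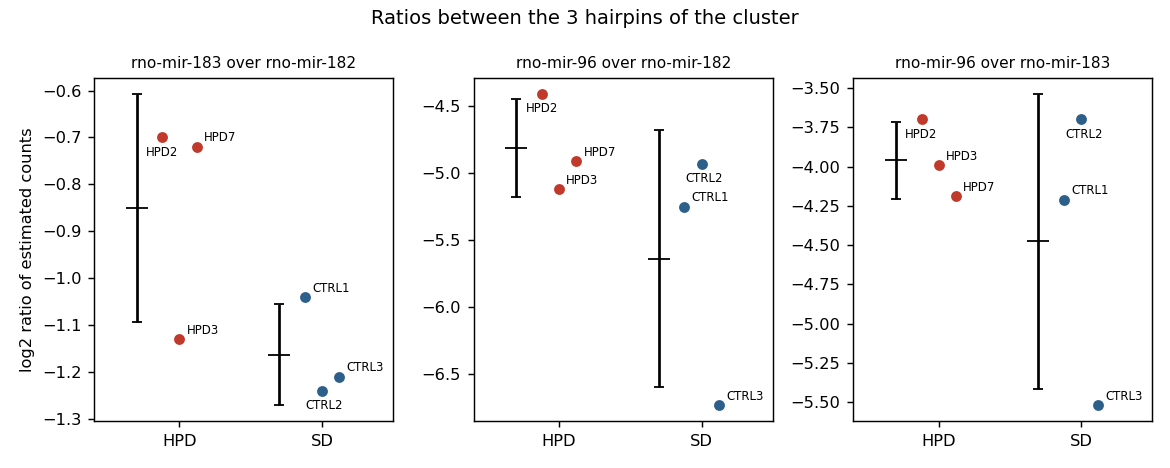
Log2 ratio of miR-183 to miR-182, miR-96 to miR-182 and miR-96 to miR-183 in each HPD and SD library, 1 point per library, with the mean ± SD. The ratios of the 2 groups overlap in each panel, and CTRL3 lies lowest in both ratios of miR-96.

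The members were also set against 2 other miRNAs of the same libraries. rno-mir-34c is a germ cell miRNA that is abundant in mature sperm, and rno-mir-200b belongs to a family of epithelial cells. The ratio of miR-183 to miR-200b varied little between libraries. miR-183 amounted to 17.1, 18.9 and 17.9% of the miR-200b reads in HPD2, HPD3 and HPD7, against 18.1, 13.6 and 19.5% in CTRL1, CTRL2 and CTRL3. The difference in log2 ratio was 0.09 (exact permutation p = 0.9, adjusted 0.9), with an SD of 0.07 in HPD rats and 0.27 in SD rats. For miR-182 to miR-200b the difference was -0.22 (exact permutation p = 0.4, adjusted 0.6), and for miR-96 to miR-200b it was 0.61 (exact permutation p = 0.2, adjusted 0.6). Without CTRL3 these were -0.09 and 0.19.

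The ratios to miR-34c were wider. miR-182 amounted to 40.3, 44.7 and 19.5% of the miR-34c reads in HPD2, HPD3 and HPD7, against 97.2, 31.8 and 81.3% in CTRL1, CTRL2 and CTRL3. CTRL2 lay among the HPD libraries, and the difference in log2 ratio was -0.95 (exact permutation p = 0.3, adjusted 0.6). miR-183 amounted to 24.8, 20.4 and 11.8% of the miR-34c reads in the HPD libraries, against 47.3, 13.5 and 35.1% in the SD libraries, with a difference of -0.63 (exact permutation p = 0.4, adjusted 0.6). Leaving out 1 library gave -1.44 (without CTRL2) to -0.57 (without HPD7) for miR-182 and -1.17 (without CTRL2) to -0.26 (without CTRL1) for miR-183. The difference for miR-96 to miR-34c was -0.12 (exact permutation p = 0.9, adjusted 0.9). In all 9 ratios the groups overlapped.

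Across the 6 libraries the members followed different miRNAs, measured as the root mean square difference of their log2 normalized counts plus 1 after centring each over the libraries, among 211 other hairpins with a mean normalized count of at least 50. This is a description over 6 libraries that share their depth and scaling. CTRL1 had the highest miRNA share of reads (28.9%) and HPD7 the lowest (11.3%). How far the profiles below follow that share was not tested. Nearest to miR-183 were rno-mir-141 at 0.14, rno-mir-148a at 0.16 and rno-mir-200b at 0.17, where the median hairpin was at 0.58. miR-141 and miR-200b are both members of the epithelial miR-200 family, and miR-182 stood in place 7 at 0.22. A peak in CTRL1 with a low in HPD7 was neither shared by all epithelial miRNAs nor particular to them. The epithelial rno-mir-205 was highest in HPD2 (normalized count 5964) and lowest in CTRL3 (3232). The X-linked testis miRNA rno-mir-201 was, like miR-183, highest in CTRL1 (6741) and lowest in HPD7 (1833). Nearest to miR-182 were rno-mir-1839 at 0.07, rno-mir-98 at 0.14 and rno-mir-429, also of the miR-200 family, at 0.14. miR-183 again stood in place 7, and the median hairpin was at 0.56.

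For miR-96 the nearest hairpins were others again. They were rno-mir-135a at 0.25, rno-mir-871 at 0.30 and rno-mir-101b at 0.30, with a median hairpin at 0.88. miR-183 stood in place 39 at 0.61 and miR-182 in place 69 at 0.72, both nearer than the median hairpin. miR-96 and miR-183 had nearly equal centred values in CTRL1 (0.93 for each) and HPD7 (-0.76 and -0.79), and were far apart in CTRL3 (-1.25 and 0.05). rno-mir-871 belongs to an X-linked cluster of the rodent testis. rno-mir-34c was far from miR-183 and miR-182, in place 139 at 0.71 and in place 167 at 0.79.

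**Figure D4:**
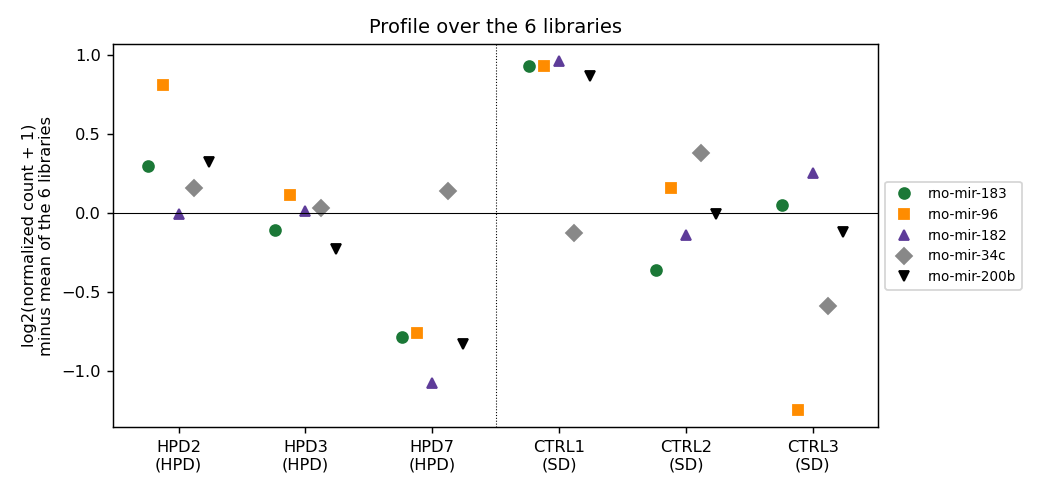
Log2 normalized count plus 1, centred over the 6 libraries, for the 3 members, rno-mir-34c and rno-mir-200b, with HPD libraries left of SD libraries. miR-183, miR-182 and miR-200b peak together in CTRL1 and are lowest in HPD7, while miR-96 is lowest in CTRL3. CTRL1 and HPD7 are also the libraries with the highest and lowest miRNA share of reads (28.9 and 11.3%).

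Lists of miRNAs known from particular cell types were read in the same fits, since a sperm sample can also hold somatic cells. Of 4 listed germ cell miRNAs of the miR-34 and miR-449 families, 3 were measured, and their summed normalized count was 58368 to 68559 in HPD rats and 34862 to 52499 in SD rats. In the fit over all small RNAs 0 of 3 passed the test and their median log2 fold change was 0.14. In the fit over miRNAs alone 25 of 281 entries were higher in HPD. There 3 of 3 were higher, with log2 fold changes of 1.46 for rno-mir-34b, 0.94 for rno-mir-34c and 0.89 for rno-mir-449a (edgeR adjusted p = 0.0106, 0.0307 and 0.0351). That fit is relative to the miRNA reads, whose mean share of all reads was 13.3% in HPD rats and 24.4% in SD rats. Against all small RNAs the same miRNAs had 0.72, 0.14 and 0.09. In the fit over all small RNAs 1 of 3 was called without CTRL3. Among miRNAs alone the count was 1 of 3 without HPD7 or without CTRL1, and 2 of 3 without CTRL2 or without CTRL3. In the same fit the median of the miR-183 cluster was 0.29, and 0 of its 3 members were called.

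The X-linked testis miRNAs, a fast-evolving group of spermatogenic cells, gave a like picture. Of 14 measured, 0 passed the test among all small RNAs (median log2 fold change 0.10). Among miRNAs alone 25 of 281 entries were higher in HPD, and of the 14 measured 8 were higher (median 0.91). That count was 2 without CTRL2. Their summed normalized count was 39472 to 69464 in HPD rats and 37229 to 71839 in SD rats.

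Epithelial miRNAs include the miR-200 family named above. Their summed normalized count was 26069 to 51100 in HPD rats and 39921 to 77405 in SD rats, with CTRL1 the highest and HPD7 the lowest library. The endothelial and stromal sums and the erythroid sums had the same highest and lowest libraries, as had miR-182 and miR-183. These sums rest mostly on rno-mir-143 (mean normalized count 46955) and rno-mir-451 (869), and not every member followed its sum. rno-mir-126a was highest in CTRL3 (6392) and lowest in HPD2 (1012), and rno-mir-199a was highest in CTRL2 (6940). CTRL1 and HPD7 also had the highest and lowest miRNA share of reads. Among all small RNAs, 83 of 285 miRNA entries (29.1%) were lower in HPD and 0 higher. Of the 7 epithelial miRNAs measured, 0 were higher and 1 was lower (median -0.71), the lower one being rno-mir-203a at -1.40 (edgeR adjusted p = 0.0322). That call was lost with any 1 library left out. Among miRNAs alone, where 25 of 281 entries were higher, 1 of 7 was higher, rno-mir-205 at 1.05 (edgeR adjusted p = 0.0106), and the median was 0.12. No miRNA of this list was at 0, and the part of epithelial cells in the values of the cluster was not tested.

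Each of the other somatic lists had members lower in HPD among all small RNAs, and none higher in either fit. Over all miRNAs, 83 of 285 entries (29.1%) were lower and 0 higher in the fit over all small RNAs. In the fit over miRNAs alone, 46 of 281 were lower and 25 higher. Of 6 leukocyte miRNAs, 4 were lower among all small RNAs (median -1.15), among them rno-mir-223, a miRNA of myeloid cells, at -2.11 (edgeR adjusted p = 0.00188). Their summed normalized count was 5645 to 7336 in HPD rats and 11531 to 13240 in SD rats, without overlap. Taken singly, 136 of the 285 miRNA entries (47.7%) did not overlap between the groups in normalized count. Among miRNAs alone 2 of 6 were lower (median -0.33), and 1 without HPD2. Of 5 endothelial and stromal miRNAs, 3 were lower (median -1.79), with summed normalized counts of 21791 to 67384 in HPD rats and 42755 to 97285 in SD rats, which overlapped. Among miRNAs alone 3 of 5 were lower (median -1.04), and the count was 1 without HPD2 and 2 without HPD3, without HPD7 or without CTRL2. Among all small RNAs the leukocyte count was 2 without HPD2, and the endothelial and stromal count was 2 without HPD3, without HPD7 or without CTRL2. Of 3 erythroid miRNAs, 1 was lower among all small RNAs (median -0.53), rno-mir-451, a miRNA of red blood cells, at -1.11 (edgeR adjusted p = 0.0256). That call stayed without CTRL3 and was lost without any other library. Among miRNAs alone 0 of 3 erythroid miRNAs were called (median 0.22), and their sums were 620 to 695 in HPD rats and 1113 to 1646 in SD rats. That median is the value of rno-mir-486, whose genome-matched entry had a mean normalized count of only 15. Its entry not matched to the genome was left out of list and sums. In the fit over miRNAs alone its average log2 level was 9.6, against 3.96 for the matched entry and 9.65 for rno-mir-451. Its log2 fold change was 0.27 there and -0.45 among all small RNAs (edgeR adjusted p = 0.461 and 0.542). No marker of these lists was at 0 over all libraries, and their part in the values of the cluster was not tested.

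**Figure D5:**
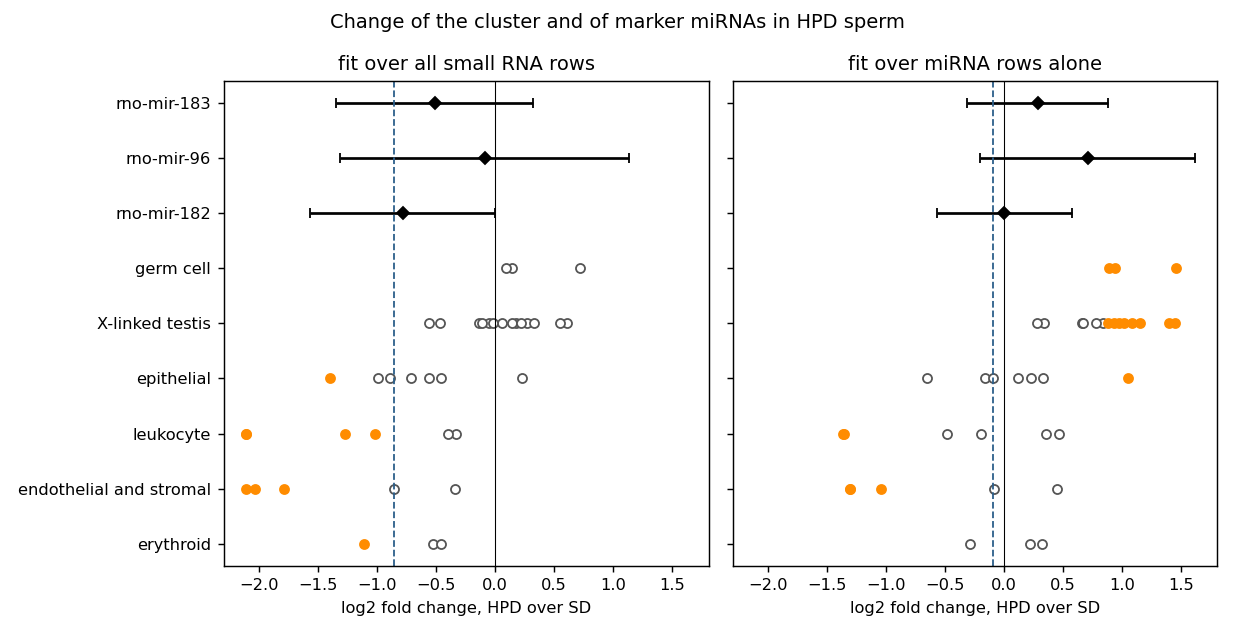
Log2 fold change of HPD over SD for the 3 members with 95% intervals and for the miRNAs of 6 cell type lists, in the fit over all small RNAs and in the fit over miRNAs alone. Filled orange points have an adjusted p of at most 0.05, open points do not, and the dashed line marks the median of the miRNAs (-0.86 and -0.09), with no member of the cluster filled in either panel.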

How the data were processed

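Sperm small RNA libraries came from 3 HPD and 3 SD rats. The submitters' processing notes name Bowtie, DESeq and DESeq2 with the builds Rnor_6.0 and mm9, and the role of mm9 is not given in the sources used here. The labels name a TruSeq RNA kit and the methods a small RNA kit. Per the methods, adapters were trimmed and reads assigned to small RNA databases with SPORTS. The authors deposited estimated counts per small RNA, a read with several matches being shared, and normalized counts, a signal that the authors made by dividing by 1 size factor per library. All normalized values gave whole reads within 1e-06, and a count test on these called 164 of 1825 entries.

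After rounding of the estimated counts, edgeR 4.0.16 (R 4.3.3) was run (minimum count 10, TMM normalization, minimum total 15, quasi-likelihood test, Benjamini-Hochberg adjustment, threshold 0.05), over all entries and over miRNA entries alone. The summed snoRNA entry, 1.25 to 1.45% of reads in HPD and 0.293 to 0.536% in SD, was left out. SEs were derived from the F statistic. For ratios, an exact permutation test (two-sided) was used. DESeq2 1.42.0, limma 3.58.1 (pseudocounts 1 and 10), other factors and filters, and leaving out each library were the alternatives. The fits were tested on simulated data, with changes put into entries drawn at random from those tested. Over all entries edgeR recovered 4.48% of 2-fold and 34.3% of 4-fold changes, with 67 entries changed at each fold. Over miRNA entries alone it recovered 30% of 2-fold and 80% of 4-fold changes, with 10 entries changed at each fold. A member that was not called may therefore still differ between the diets. The rates cover entries of all levels and were not taken at the levels of the members. Columns follow the diets, but their numbers could not be tied to single titles. Replicates are separate rats per the methods. The miRNAs named were the 3 members, 2 comparison miRNAs, the 3 hairpins nearest to each member, neighbours in rank and up to 3 of each list. Members and lists were chosen with earlier results of these data known. Figures were drawn with matplotlib 3.10.9.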

Additional observations from a re-analysis of the deposited data

How the results depend on the processing

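No call of a member changed under any alternative. Against all small RNAs, miR-182 stayed negative in 15 of 15 alternatives (-0.94 to -0.36, lowest edgeR adjusted p 0.0972). miR-96 changed direction with upper quartile factors (0.16), with no filter (0.12), with a mean normalized count of at least 50 (0.06) and in limma (0.11 with pseudocount 1, 0.09 with pseudocount 10). Leaving out 1 library gave -0.49 to 0.54 for miR-96, -0.70 to 0.00 for miR-183 and, among miRNAs alone, -0.18 to 0.19 for miR-182, which was -0.03 with library size alone. The difference in log2 ratio ranged from -0.01 to 0.91 for miR-96 to miR-183, -0.48 to 0.39 for miR-96 to miR-34c and -0.07 to 0.19 for miR-183 to miR-200b. The cause was not tested. The fit on recovered whole reads, chosen after seeing the data, gave -0.78, -0.51 and -0.09 for miR-182, miR-183 and miR-96. No paired analysis was possible because the column names could not be tied to the numbers of the titles. The methods name no pairs of HPD and SD rats either, so a number shared by titles of both groups is not known to mark a pair. miR-96 had 55 to 459 reads a library, the fewest of the cluster.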
